A study of Mus musculus with 6 samples.

Results

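The genes described here are 10 genes of glucose uptake and glycolysis: Slc2a1, Hk1, Hk2, Pfkl, Aldoa, Gapdh, Eno1, Pkm, Ldha and Mif. They were taken by name as 10 of the 31053 gene rows that the count table of each of 6 single-cell RNA libraries holds, and all 10 were found in every table. The cells were embryoid bodies, clusters of differentiating cells, taken on day 6 of a protocol that turns mouse embryonic stem cells into motor neurons. All 3 groups derive from the HB9::GFP line, whose green reporter marks motor neurons, and went through the same protocol. The WT group is labelled wild type, the DeltaSP group lncMN2_SP-/- and the KO group lncMN2-/-, both edited with CRISPR/Cas9 at the MN2 locus, a source of long and short noncoding RNAs. Each group had 2 libraries, which the labels tie to 2 clones a condition, so that clone, library and genotype could not be told apart beyond 2 libraries a group, and p-values measure only the spread between these libraries.

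Glycolysis turns glucose into pyruvate in a chain of cytosolic reactions. Glucose enters through facilitative transporters, of which Slc2a1 (GLUT1) is the common one of dividing and blood-brain barrier cells and Slc2a3 (GLUT3) that of neurons. Hexokinases (Hk1, Hk2) trap glucose by phosphorylation, Pfkl is the liver-type phosphofructokinase, Aldoa, Gapdh, Eno1 and Pkm carry the lower steps, and Ldha makes lactate from pyruvate. Neural progenitors are known for a glycolytic metabolism that gives way to oxidative phosphorylation in neurons, and many of these genes are textbook targets of the hypoxia-inducible factor HIF-1. Mif, which codes for a cytokine that binds CD74 and CXCR4, is a hypoxia-linked gene and no enzyme of the pathway.

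The sequences before the transcription starts are shown to describe where they hold the letters ACGTG. These are a form of the core of the hypoxia-response element, whose other form, GCGTG, was not searched. Any link between these letters and the levels given below was not tested. RefSeq windows (GRCm38.p6) from 250 bases before to 50 bases after each start were found for all 10 members, 17 windows in all. ACGTG was searched on both strands (as ACGTG or CACGT), and CACGTG, also the E-box of MYC and USF factors, counts on both. At least 1 match lay in a window of 8 of the 10 members and in 9 of the 17 windows, against 21.8% of the 27025 genes and 19.6% of the 32851 windows in the RefSeq table. In GRCm38 (mm10) the genes lie on chromosome 4 (Slc2a1, Eno1), 6 (Hk2, Gapdh), 7 (Aldoa, Ldha), 9 (Pkm) and 10 (Hk1, Pfkl, Mif). No window of Pfkl or Eno1 held the match, nor did the first window of Hk1, Aldoa and Pkm or the second of Ldha. This says only that these letters are absent from these windows. The form GCGTG, which was not counted, does occur in windows of Pfkl and Eno1. The 250 bases before the start of Ldha (chr7:46845554-46845803, plus strand), Aldoa (chr7:126799255-126799504, minus strand), Slc2a1 (chr4:119108495-119108744, plus strand) and Mif (chr10:75860278-75860527, minus strand) are given 5′ to 3′ on the gene's strand, for Ldha at the first and for Aldoa at the second of several starts, with each ACGTG or CACGT in capitals.
Ldha: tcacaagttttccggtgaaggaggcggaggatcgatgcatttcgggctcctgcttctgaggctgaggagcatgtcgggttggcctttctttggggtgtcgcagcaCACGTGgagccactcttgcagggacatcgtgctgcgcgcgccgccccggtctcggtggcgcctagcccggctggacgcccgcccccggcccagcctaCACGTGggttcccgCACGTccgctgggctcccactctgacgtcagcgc
Aldoa: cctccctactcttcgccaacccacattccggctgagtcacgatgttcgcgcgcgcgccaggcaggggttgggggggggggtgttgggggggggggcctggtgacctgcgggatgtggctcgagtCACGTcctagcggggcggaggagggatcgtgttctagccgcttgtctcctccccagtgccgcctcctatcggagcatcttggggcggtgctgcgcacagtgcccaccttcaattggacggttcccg
Slc2a1: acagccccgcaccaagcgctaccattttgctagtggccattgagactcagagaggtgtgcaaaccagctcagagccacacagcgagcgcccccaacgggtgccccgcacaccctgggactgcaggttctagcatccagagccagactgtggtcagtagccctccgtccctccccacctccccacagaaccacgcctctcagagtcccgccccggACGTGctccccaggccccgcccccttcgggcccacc
Mif: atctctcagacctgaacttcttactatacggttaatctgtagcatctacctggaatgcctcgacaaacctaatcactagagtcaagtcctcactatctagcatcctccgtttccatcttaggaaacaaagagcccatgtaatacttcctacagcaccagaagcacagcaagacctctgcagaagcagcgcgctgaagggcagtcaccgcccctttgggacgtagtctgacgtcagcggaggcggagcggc
Ldha's stretch held 2 copies of CACGTG and a further CACGT, those of Aldoa and Slc2a1 1 match each, and that of Mif none, with 1 match at base 30 after the start. Hk2 had 2 matches before its start. Matches are descriptions of these letters, not of sites in use.

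Library totals ran from 24191242 to 49061693 UMIs (unique molecular identifiers, each standing for 1 captured RNA molecule), over 24215 barcodes, of which 16225 cells were kept. WT 1 stood apart: its kept cells had a median depth of 4157 UMIs, those of the other libraries 11898.5 to 15112. Pairs of libraries shared 3 to 11 barcodes. The targeted transcript 5330434G04Rik was at 37.4 and 34.8 CPM in the WT libraries, 22.4 and 23.3 CPM in DeltaSP and 0.12 and 0.17 CPM in KO, with no overlap between groups. The 13 motor neuron markers summed to 879 to 1305 CPM by library and the 14 neural progenitor markers to 2560 to 3507 CPM, with no gene of either list at 0. The 9 pluripotency markers summed to 2.0 to 15.9 CPM. CPM are a gene's UMIs scaled to a library total of 1000000, with the totals adjusted between libraries by TMM unless said otherwise; values are given in the order library 1, library 2.

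Over all kept cells, most members differed between the 2 libraries of each genotype, and in the same direction. Ldha, the lactate dehydrogenase subunit of glycolytic cells, was at 48.5 and 254 CPM in WT, 138 and 349 in DeltaSP, and 174 and 803 in KO. In each genotype the library numbered 2 was the higher, by 5.25 times in WT, 2.54 times in DeltaSP and 4.61 times in KO, and the ranges of the genotypes overlapped. Eno1, the enolase of most cells, was at 128 and 417 CPM in WT, 243 and 422 in DeltaSP and 269.9 and 636 in KO. Pfkl was at 25.9 and 64.1 CPM in WT, 41.6 and 62.7 in DeltaSP and 45.2 and 141 in KO. Aldoa, the main aldolase, was at 197 and 363 CPM in WT, 237 and 400 in DeltaSP and 252 and 597 in KO. For these genes, too, every library 2 lay above its library 1.

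**Figure D1:**
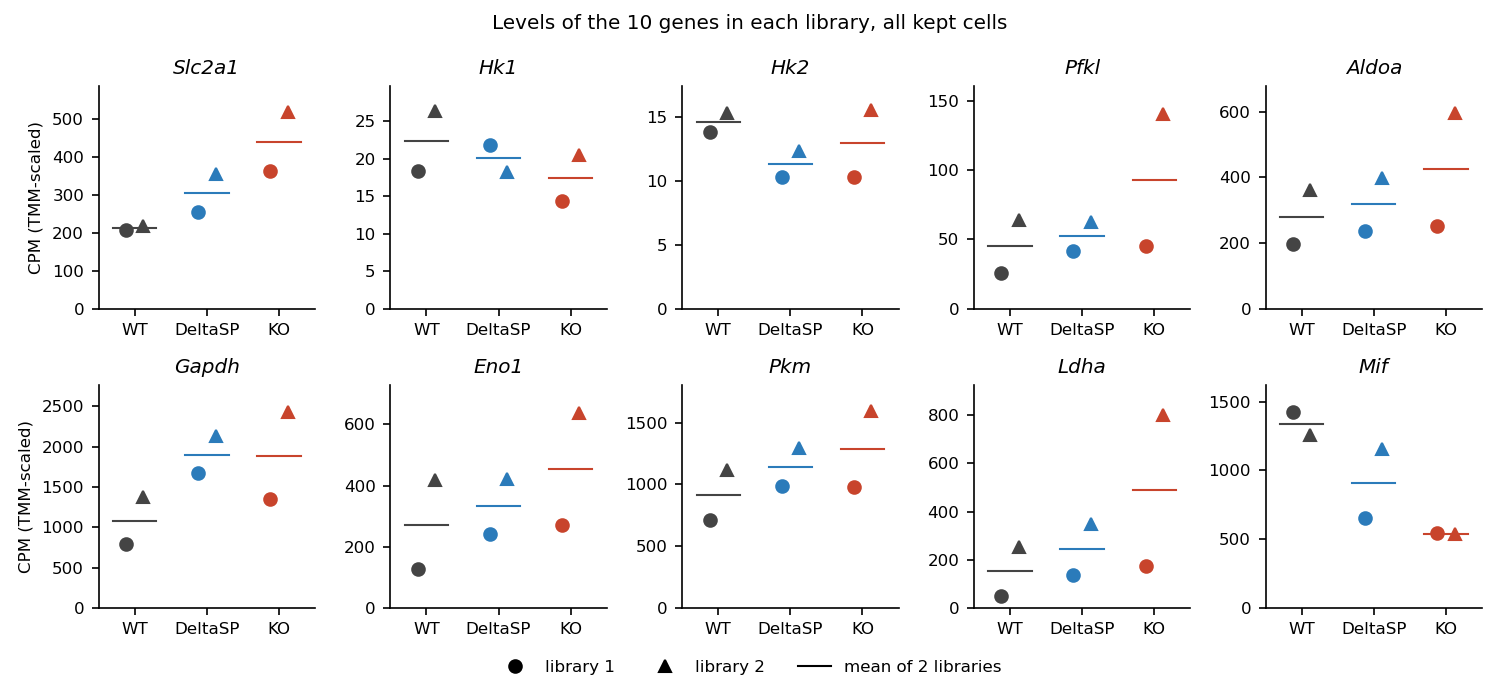
Level of each of the 10 genes in CPM (vertical axes, from 0, TMM-scaled) in the 6 libraries, by genotype (horizontal axes), over all kept cells. Circles are library 1, triangles library 2 and lines the mean of the 2 libraries. The triangle lies above the circle in all 3 genotypes for 8 of the 10 genes, not for Hk1 and Mif.

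Gapdh followed with smaller steps: 796 and 1371 CPM in WT, 1677 and 2128 in DeltaSP, 1349 and 2430 in KO. Pkm, the pyruvate kinase gene, was at 712 and 1117 CPM in WT, 991 and 1292 in DeltaSP, 980 and 1595 in KO. The transporter Slc2a1 was 1.04, 1.396 and 1.43 times higher in library 2 of WT, DeltaSP and KO, and Hk2 1.11, 1.202 and 1.51 times. In all, 8 of the 10 members were higher in library 2 than in library 1 of all 3 genotypes, as were 12.6% of the 6660 genes with a mean of at least 20 CPM, and 0 members were lower in all 3, as were 12.5% of those genes. Hk2, whose mean was under 20 CPM, is counted among the members. Hk1, the hexokinase of brain, went the other way in DeltaSP (21.9 and 18.2 CPM), and Mif in WT (1427 and 1254 CPM), while in KO Mif was level (541 and 540 CPM).

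Of the members, 4 (Pfkl, Aldoa, Eno1 and Ldha) were over 1.5 times higher in library 2 of all 3 genotypes, as were 7 of the 6660 genes or 0.105%, a limit chosen after the values were seen. The other genes of those 7 were Slc16a3, the lactate exporter MCT4, at 12.7, 2.88 and 9.43 times, the histone gene Hist1h2ap and the ventral progenitor gene Nkx2-9. Of the other pathway genes of at least 20 CPM on the glycolysis list, 9 of 12 were higher in library 2 of all 3 genotypes, Pgk1 by 1.505, 1.38 and 2.15 times. Ldhb alone of the 12 was lower in all 3 (0.835, 0.780 and 0.946 times). Of 17 such hypoxia-list genes 9 were higher in all 3 and 3 lower, among them Hif1a itself. Within progenitor-like cells, a class of named clusters, 7 members were higher in library 2 of all 3 genotypes (11.4% of genes were) and 4 by over 1.5 times (0.142%). Within neuron-like cells 7 were higher (10.1% of genes) and 3, Aldoa, Eno1 and Ldha, by over 1.5 times (0.0912%). Ldha was 5.08, 2.02 and 3.57 times higher in library 2 of WT, DeltaSP and KO in the progenitor-like class, and 9.56, 3.998 and 6.29 times in the neuron-like class. What the number marks is not stated in the labels, and no test was run on this split.

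**Figure D2:**
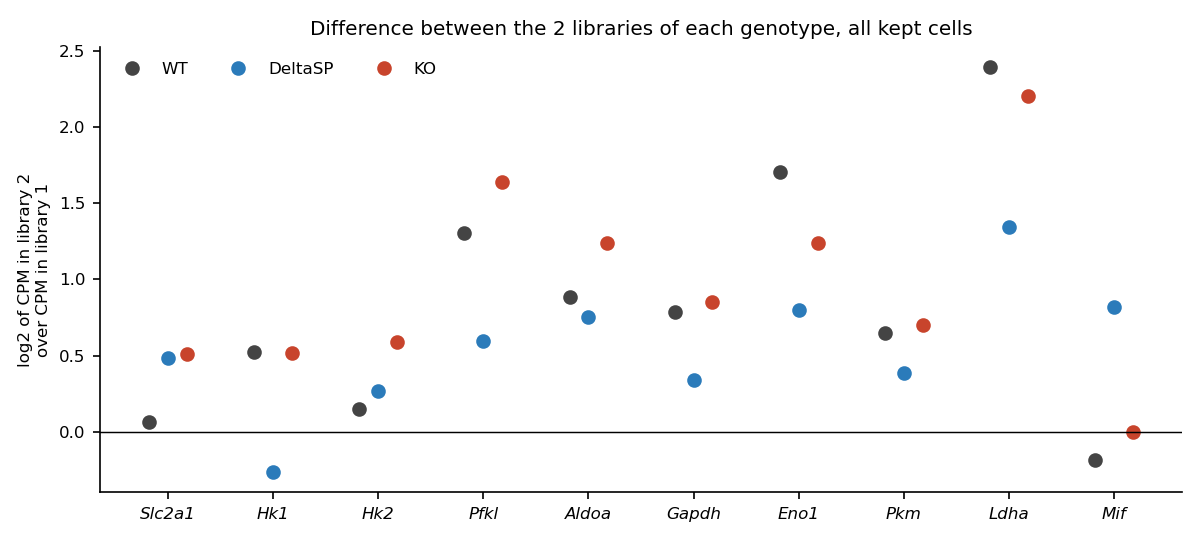
Log2 of the CPM in library 2 over the CPM in library 1 (vertical axis) for each gene (horizontal axis) within WT, DeltaSP and KO, over all kept cells; 0 is no difference. Ldha stands highest, and only Hk1 and Mif have points below 0.

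To set cell classes against each other, cells were clustered without the 10 members and the listed pathway and hypoxia genes (84 genes), and clusters were named from markers. The progenitor-like class joins a neural progenitor-like cluster of 3851 cells and a p3 or floor plate-like cluster of 1305, and the neuron-like class 4 motor neuron-like clusters and an interneuron-like one. Slc2a1 was at 441.6 and 420.0 CPM in progenitor-like cells of the WT libraries, 447 and 571 in DeltaSP, 599 and 743 in KO. In neuron-like cells it was at 45.7 and 41.0 CPM in WT, 52.4 and 81.9 in DeltaSP, 71.3 and 142 in KO. The lowest progenitor-like library thus lay above the highest neuron-like library. Slc2a1 was 7.87-fold lower in neuron-like cells (log2 difference -2.98 ± 0.11 SE, n = 6 libraries, adjusted p = 3.9e-10, edgeR's quasi-likelihood test with library as a block), lower in 6 of 6 libraries.

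The hexokinases exchanged places. Hk2, the inducible hexokinase of growing cells, was at 34.2 and 33.9 CPM in progenitor-like cells of WT, 21.3 and 22.0 in DeltaSP, 18.2 and 24.0 in KO, and at 2.1 to 5.5 CPM in neuron-like cells. Hk2 was 7.88-fold lower in neuron-like cells (log2 -2.98 ± 0.16 SE, edgeR adjusted p = 8.4e-09). Its neuron-like values rest on 21 to 56 UMIs a library. Hk1, the hexokinase that docks on mitochondria in brain, was at 6.7 to 13.5 CPM in progenitor-like and 29.6 to 48.3 CPM in neuron-like cells. Hk1 was 3.73-fold higher in neuron-like cells (log2 1.90 ± 0.11 SE, edgeR adjusted p = 2.1e-08), higher in 6 of 6 libraries.

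All 10 members passed this test, but 83.3% of the 12636 genes tested did, so that the count passing is near the background. Of the members, 9 were lower and Hk1 higher in neuron-like cells, beside 42.3% lower and 41.0% higher over all genes tested. The members' median log2 difference was -0.93, beside -0.01 over all genes tested, whose quartiles were -0.63 and 0.66. Ldha was 2.68-fold lower (edgeR adjusted p = 2.3e-06) and Mif 2.12-fold lower (2.8e-09), in 6 of 6 libraries each. Gapdh fell by 0.97 on the log2 scale (SE 0.03) and Eno1 by 0.88 (SE 0.04). Pkm (-0.35), Pfkl (-0.29) and Aldoa (-0.13 ± 0.05 SE) differed least. Aldoa was lower in 4 of 6 libraries and higher in both WT libraries. Without DeltaSP 1, DeltaSP 2, KO 1 or KO 2, and without a shallow motor neuron-like cluster, Aldoa did not pass (adjusted p 0.099 to 0.165).

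**Figure D3:**
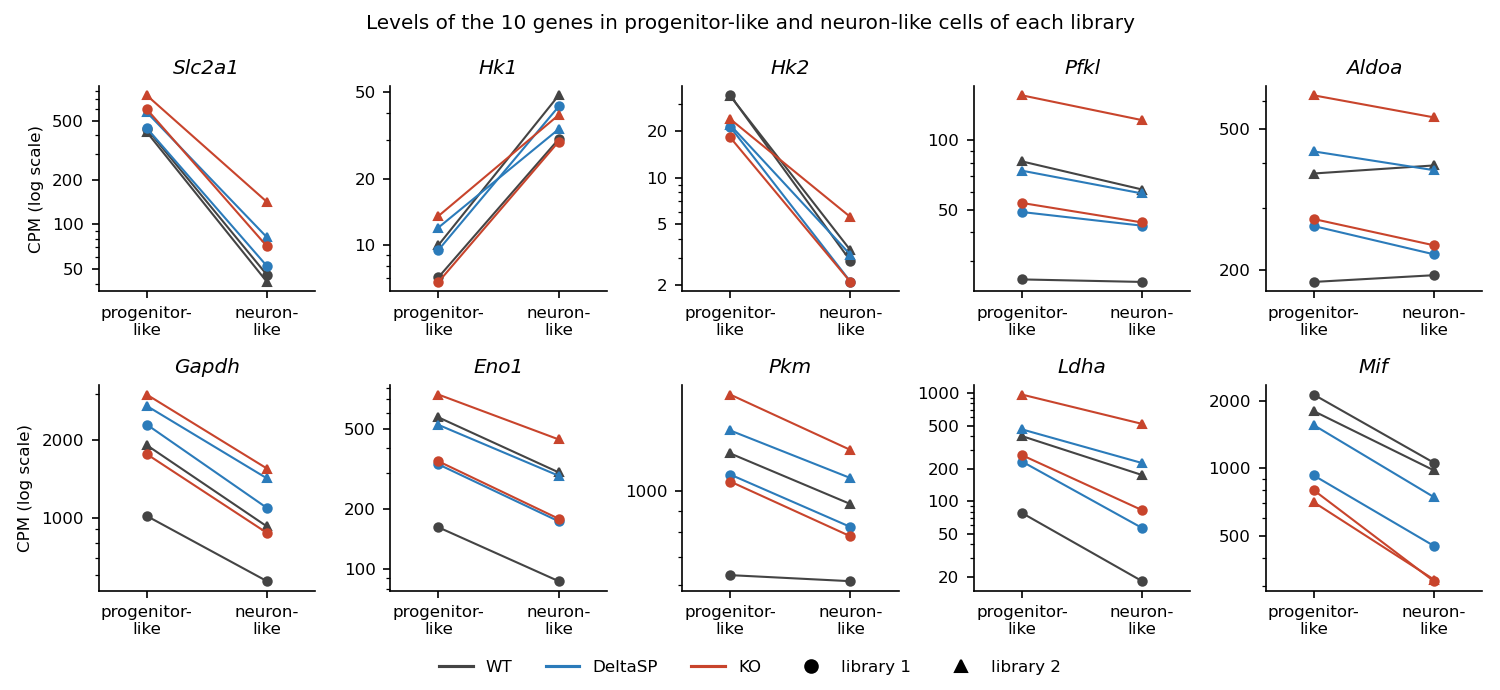
CPM of each gene (vertical axes, log scale) in the progenitor-like and the neuron-like cells of each library, joined by a line; colours are genotypes, circles library 1 and triangles library 2. Lines fall in all 6 libraries for every gene other than Hk1, where all rise, and Aldoa, where both WT lines rise.

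For the other pathway genes the same contrast went both ways: of 29 tested on the glycolysis list, 15 were higher in neuron-like cells, 10 lower and 4 did not pass. Those higher included Eno2, the neuronal enolase (13.6-fold, from a mean of 1.01 CPM in progenitor-like to 13.1 in neuron-like cells). Pfkp, the platelet-type phosphofructokinase, was 12.4-fold higher (1.83 to 22.8 CPM), and the lactate transporter Slc16a7 11.1-fold (0.479 to 6.16 CPM). These folds start from low levels. Ldhb was 2.05-fold and Slc2a3 1.44-fold higher. Others higher were Pfkm, Tpi1, Bpgm, Pfkfb2, Pfkfb3, Pfkfb4, Slc2a8, Pdhb and Pdk2. Those lower included the hexokinase Hk3 (8.55-fold), the lactate transporter Slc16a1 (7.94-fold), the pyruvate dehydrogenase kinase Pdk3 (3.41-fold) and Pdk1 (2.03-fold). The others lower were Gpd2, Pgk1, Pgam1, Pdha1, Eno3 and Slc2a4. Of 27 hypoxia-list genes tested, 11 were higher and 11 lower, Vegfa, the angiogenic growth factor, being 2.89-fold lower and Bnip3, a mitophagy receptor, 2.001-fold higher. Free RNA from broken cells was not removed, and its part in low levels was not tested. In neuron-like cells Slc2a1 stood at 10.02% to 20.6% of its progenitor-like level by library and Hk2 at 8.88% to 24.9%. The progenitor genes Sox2, Hes5 and Fabp7, known to be shut off in neurons, stood at 4.54% to 15.8%, and the cell-cycle genes Mki67 and Top2a at 6.32% to 17.6%. Vim, an intermediate filament gene of progenitors, stood at 54.1% to 87.4%. KO 2 was highest for Slc2a1, Hk2, Sox2, Hes5, Vim and Top2a.

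Shares within isoenzyme pairs need no scale between libraries; they are shares of UMIs, not corrected for transcript length, and are compared only between libraries or classes. Hk2 made 63.9% to 82.8% of the Hk1 and Hk2 UMIs in progenitor-like and 4.67% to 12.4% in neuron-like cells, with no overlap. Its mean share was 71.8% ± 7.37 (SD, n = 6) against 7.89% ± 2.64 (exact sign-flip test, two-sided, p = 0.0312, the smallest that 6 libraries allow; 0.0391 adjusted over the 5 pairs compared). Ldha made 70.3% ± 19.0 of the Ldha and Ldhb UMIs in progenitor-like and 36.01% ± 24.2 in neuron-like cells (SD, n = 6), lower in 6 of 6 libraries. Slc2a1 in Slc2a1 plus Slc2a3 fell from 98.4% ± 1.09 to 84.5% ± 8.73 and Eno1 in Eno1 plus Eno2 from 99.7% ± 0.31 to 94.7% ± 2.40 (SD, n = 6). Each of these had the same exact p of 0.0312 (0.0391 adjusted), while Aldoa in Aldoa plus Aldoc did not differ beyond the spread (97.7% and 97.5%, exact p = 0.406).

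The share that varied most between libraries was that of Ldha. Over all kept cells it was 18.5% in WT 1 and 58.7% in WT 2, 42.7% and 70.8% in DeltaSP, 55.2% and 85.7% in KO. The library numbered 2 was again the higher in each genotype. Its mean rose by 31.9 percentage points from WT to KO, with the groups overlapping (exact permutation test, two-sided, p = 0.667, n = 2 against 2, where the smallest possible p is 0.333). Over 15 such comparisons of the 5 pairs, none could pass, and p was 0.333 or more.

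Among 12 clusters the members fell into different patterns, given here as CPM of the cluster's own UMIs (not TMM-scaled), mean ± SD over the libraries with at least 50 of its cells. Slc2a1 was highest in the committing precursor-like cluster (715 ± 213, n = 6), which expressed Neurog2 and Dll1, and in the neural progenitor-like cluster (655 ± 178, n = 6). It was much lower in the p3 or floor plate-like cluster (160 ± 94, n = 6), also progenitors, and lowest in the motor neuron-like cluster led by Sst and Prph (34.0 ± 23.2, n = 6), 21.0 times below the top. Hk2 had another order: highest in the p3 or floor plate-like cluster (37.9 ± 12.9, n = 6), then in the neural progenitor-like one (20.2 ± 3.8, n = 6), and at 11.3 ± 4.8 in the committing precursor-like one (n = 6). Hk1 was highest in the Sst and Prph cluster (52.7 ± 12.8, n = 6) and the Phox2a cluster (52.4 ± 15.3, n = 4), and lowest in the committing precursor-like one (6.4 ± 1.6, n = 6).

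Some means rest on fewer libraries than others, so the order was also read inside each library. There Slc2a1 was highest in the committing precursor-like and Hk2 in the p3 or floor plate-like cluster in 6 of 6 libraries. Hk1 was highest in the Sst and Prph cluster in 4 libraries and in the Phox2a cluster in WT 2 and KO 1. Pkm was highest in an unnamed cluster with the immediate early genes Junb, Atf3 and Egr1 (number 1 on the map of clusters) in 5 of 6 libraries, at 1008 and 1641 CPM in WT, 1473 and 1674 in DeltaSP and 1651 in KO 1, and second to another cluster in KO 2 (2552).

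Ldha and Aldoa had their highest mean in the motor neuron-like cluster led by Phox2a, at 660 ± 282 and 705 ± 164 CPM (n = 4), against 118 ± 134 and 353 ± 142 (n = 6) in the Sst and Prph cluster. WT 1 and DeltaSP 1, the libraries of lowest Ldha, had under 50 cells there and do not enter those means. Ldha and Aldoa were highest in that cluster in WT 2, DeltaSP 2 and KO 1, but not in KO 2, where both were highest in the p3 or floor plate-like cluster (Ldha 1181 against 1004 CPM, Aldoa 873 against 811). Pfkl was highest in the Phox2a cluster in the same 3 libraries. An unnamed cluster of shallow cells (number 10, with a median UMI count 0.19 times that of their libraries) had at least 50 cells in DeltaSP 1, DeltaSP 2 and KO 2 and in neither WT library. It held the highest mean of Pfkl, Gapdh, Eno1 and Pkm, but inside those 3 libraries it was highest in 3 for Gapdh, in 2 for Eno1 and in KO 2 alone for Pfkl and Pkm. Mif had its highest mean in neural progenitor-like cells (1318 ± 487, n = 6), which led in WT 1, WT 2 and KO 1, while the shallow cluster led in the 3 libraries that had it. Mif was lowest in an unnamed cluster with Mnx1 and stress genes (399 ± 148, n = 6), in 6 of 6 libraries. In the order of clusters by mean, 10 of 11 neighbouring pairs overlapped between libraries for Slc2a1 and Hk2, and 11 of 11 for each other member.

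**Figure D4:**
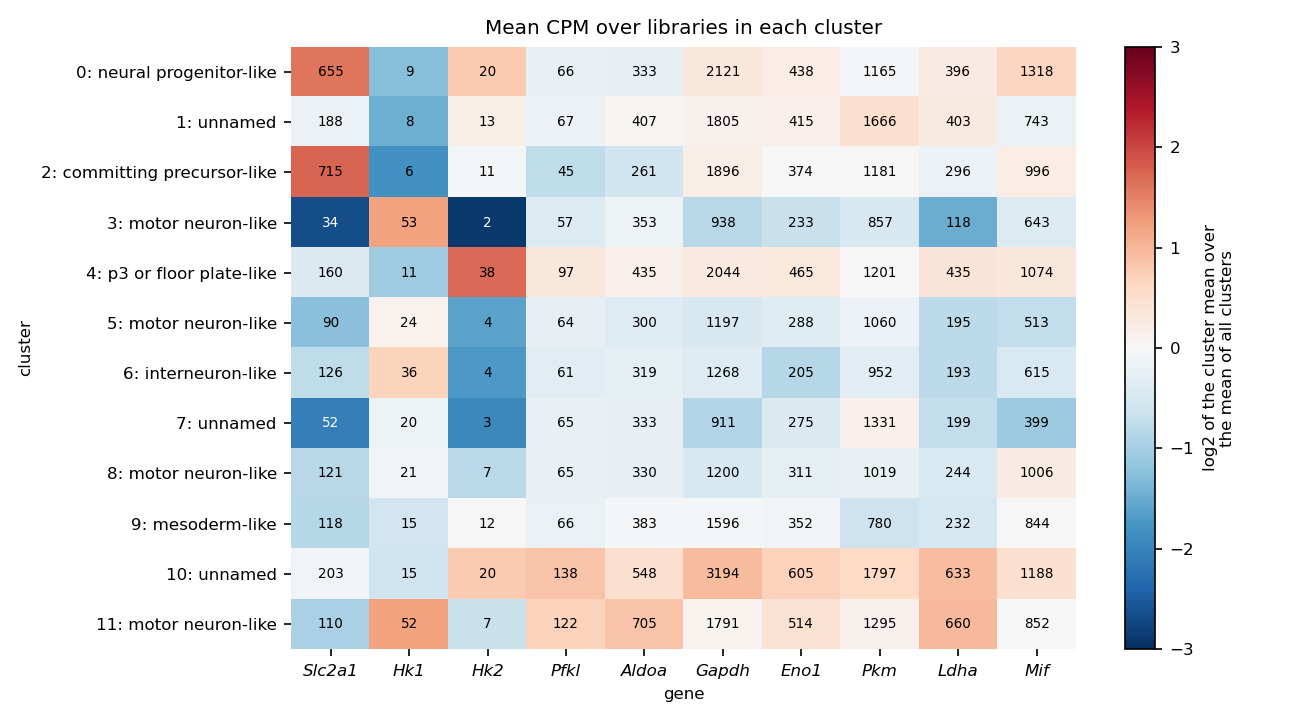
Mean CPM over libraries (numbers) of each gene (horizontal axis) in each of 12 clusters (vertical axis); colour gives log2 of the cluster mean over the mean of all clusters for that gene. Slc2a1 is high in clusters 0 and 2, Hk2 in 4 and 0, Hk1 in 3 and 11, and Ldha and Aldoa in 11 and 10; the means of clusters 10 and 11 rest on 3 and 4 libraries, without WT 1.

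Over the 62 sums of cluster and library, log2 levels of Ldha and Eno1 had a Pearson correlation of 0.95, as did Aldoa and Pfkl, and Slc2a1 and Hk1 one of -0.58. These sums share libraries and depths, and the values are descriptions. The genes of at least 20 CPM most like Slc2a1 over those sums, out of 6773, were Pdpn, Id1, Rrm2, Anp32e and Notch1 (r 0.84 to 0.89). Among those most like Mif were Psmg4, Rpl41, Snrpd2 and Dpm3 (r 0.92 to 0.94).

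Between KO and WT over all kept cells, 2 of the 10 members passed the test: Slc2a1 was higher and Mif lower in KO. For comparison, 7.52% of the 14900 genes tested passed, 2.81% higher and 4.71% lower. Slc2a1 was at 208 and 217 CPM in WT, 254 and 355 in DeltaSP and 363 and 518 in KO; the KO libraries lay above all others. Its mean was 440 ± 109 CPM in KO against 212 ± 6.5 in WT (SD, n = 2), a 2.07-fold difference (log2 1.05 ± 0.23 SE, edgeR adjusted p = 0.045). Without WT 1, KO 1 or KO 2 it no longer passed (log2 1.03, 1.29 and 0.78, adjusted p 0.096, 0.096 and 0.319).

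The clusters in which Slc2a1 was high (neural progenitor-like and committing precursor-like) held 31.4% and 27.2% of the cells of WT 1 and WT 2, 34.6% and 35.9% in DeltaSP and 37.9% and 47.5% in KO. Neuron-like cells, in which it was low, made 39.5% and 34.9% of cells in WT, 31.3% and 24.9% in DeltaSP and 24.1% and 23.9% in KO. The 15 pan-neuronal markers summed to 10259 and 12346 CPM in WT, 9226 and 7091 in DeltaSP and 7073 and 5805 in KO, and the 6 interferon-state markers to 12.01 and 10.3, 225 and 174, and 31.6 and 77.8 CPM. These values moved with genotype, and their part in the differences of members between DeltaSP or KO and WT was not tested. The share of the Slc2a1-high clusters moved with Slc2a1, and its part in the all-cell difference was not tested; in summed cells, more cells of a type and more RNA per cell cannot be told apart. Inside the neural progenitor-like cluster, Slc2a1 was at 435 and 517 CPM (not TMM-scaled) in WT, 596 and 672 in DeltaSP and 793 and 916 in KO, with no overlap of WT and KO. Inside the committing precursor-like cluster it was at 439 and 597 CPM in WT, 629 and 734 in DeltaSP and 836 and 1052 in KO. The p3 or floor plate-like cluster made 211 of 1158 and 174 of 470 progenitor-like cells in WT. In DeltaSP it made 201 of 702 and 329 of 1191, and in KO 216 of 739 and 174 of 896. Inside it Slc2a1 was at 60.8 and 146 CPM (not TMM-scaled) in WT, 94.1 and 175 in DeltaSP and 149 and 332 in KO. The part of this makeup in the class values was not tested. In the test within progenitor-like cells the log2 difference was 0.60 ± 0.20 SE (edgeR adjusted p = 0.161) and within neuron-like cells 1.30 ± 0.34 SE (adjusted p = 0.078), neither passing. In a joint fit of both classes with library as a block, the KO effects on Slc2a1 differed by 0.60 on the log2 scale. That difference did not pass either (edgeR unadjusted p = 0.014, adjusted p = 0.285).

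Mif was at 1427 and 1254 CPM in WT, 656 and 1159 in DeltaSP and 541 and 540 in KO, so that KO and WT lay apart and DeltaSP between them. It was 2.48-fold lower in KO (log2 -1.31 ± 0.28 SE, edgeR adjusted p = 0.040, mean 541 ± 0.62 CPM against 1341 ± 123, SD, n = 2). Within neuron-like cells it fell by 1.68 on the log2 scale (SE 0.25, edgeR adjusted p = 0.033), from 1060 and 980 CPM in WT to 314 and 319 in KO in the sums of the class comparison. The neuron-like class was made of different clusters by genotype: the motor neuron-like cluster led by Cldn3 and Cntn2 (number 5) held 0.788% and 25.3% of it in WT, 41.3% and 38.5% in DeltaSP and 39.7% and 40.3% in KO, the shallow motor neuron-like one 36.3% and 12.1%, 5.73% and 7.25%, and 2.14% and 5.79%. Inside single clusters Mif was at 1115 and 922 CPM (not TMM-scaled) in WT against 330 and 307 in KO in the Sst and Prph cluster, and at 854 and 893.5 against 330 and 374 in the interneuron-like one, with no overlap in either. Within progenitor-like cells the value was -1.42 ± 0.29 SE (adjusted p = 0.053), which passed without WT 2, DeltaSP 1 or DeltaSP 2 (adjusted p 0.024, 0.037 and 0.039). Without WT 1, KO 1 or KO 2 the all-cell call was lost (adjusted p 0.087, 0.160 and 0.296), and without KO 1 or KO 2 that in neuron-like cells (0.130 and 0.357), with log2 values of -1.20 to -1.30 and of -1.67 and -1.69.

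Mif has a short transcript, at most 600 bases in GENCODE M21, and short transcripts as a class were lower in KO. The 355 tested genes with a longest transcript of at most 700 bases had a median log2 difference of -1.19 between KO and WT and -0.57 between DeltaSP and WT. For genes over that length and up to 1500 bases the medians were -0.08 and -0.02, and for those from there to 3000 bases 0.07 and 0.05. Short transcripts also differed within WT: between WT 1 and WT 2 the medians of these classes were 0.32, 0.23 and -0.04, positive being higher in WT 1. With the trend of each library on transcript length removed, Mif in KO was at -0.34 on the log2 scale and did not pass (edgeR adjusted p = 0.333), while Slc2a1 was at 0.98 and passed (0.046). The other 9 members have longest transcripts of 1549 bases or more.

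**Figure D5:**
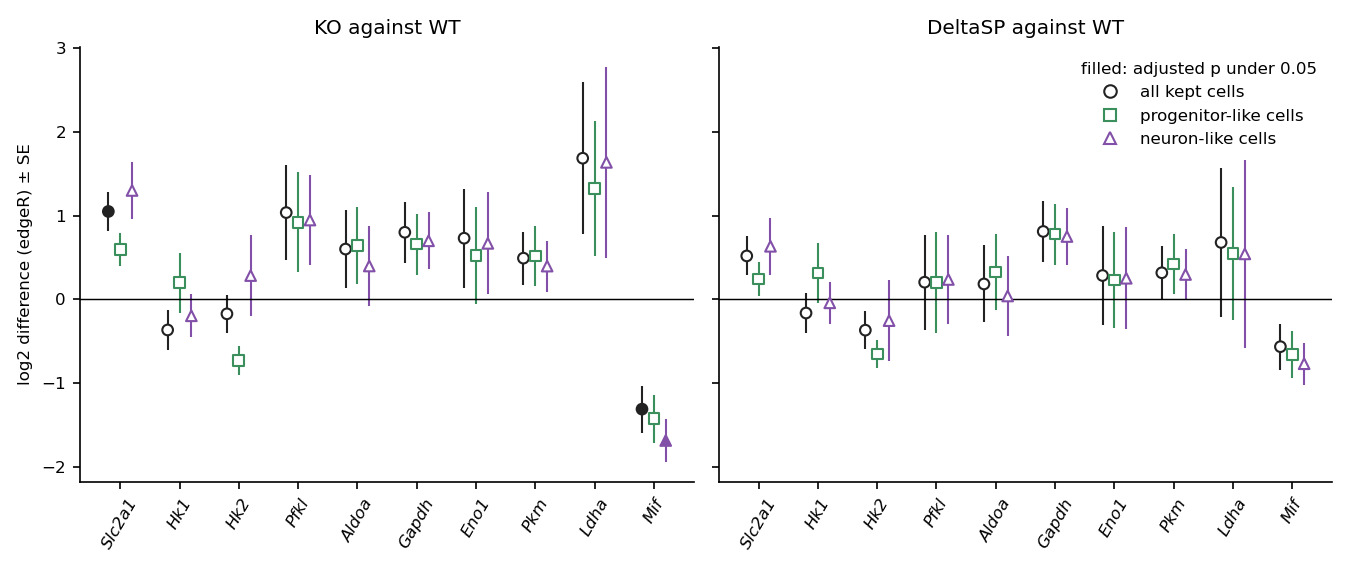
Log2 difference ± SE (vertical axes, edgeR) of KO (left) and DeltaSP (right) against WT for each gene (horizontal axes) in all kept, progenitor-like and neuron-like cells, from 2 libraries a genotype; filled symbols have an adjusted p under 0.05. Filled symbols are Slc2a1 and Mif in KO over all cells and Mif in KO in neuron-like cells.

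The other 8 members did not pass between KO and WT, and for each of them the libraries overlapped. The median log2 difference of the 10 members was 0.67, beside 0.001 over all genes tested. Ldha had the largest value among those, 1.69 ± 0.91 SE (edgeR adjusted p = 0.257), and Pfkl came next at 1.04 ± 0.57 SE (adjusted p = 0.266). Gapdh was at 0.80 ± 0.36 SE (adjusted p = 0.188), Eno1 at 0.73, Aldoa at 0.60 and Pkm at 0.49. These SE values hold the spread between library 1 and library 2 described above. Hk1 (-0.36) and Hk2 (-0.17) were the only other negative values. Libraries of KO and WT did not overlap for 2 of the 10 members, beside 59.3% of all genes (30.1% higher, 29.3% lower). With no filter on low counts, 3390 of 22804 genes tested passed (1557 higher, 1833 lower). Of the members, 7 passed there (Slc2a1, Pfkl, Aldoa, Gapdh, Eno1 and Ldha higher, Mif lower).

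Within progenitor-like cells Hk2 had negative values in both mutants that did not pass the test. In the fit within that class it was 33.5 ± 0.52 CPM in WT, 21.3 ± 0.76 in DeltaSP and 20.2 ± 3.65 in KO (SD, n = 2), with neither mutant overlapping WT. Libraries did not overlap there for 3 members between KO and WT (49.2% of all genes, 25.8% higher and 23.4% lower) and for 3 between DeltaSP and WT (44.1%, 23.4% higher and 20.7% lower). The log2 differences were -0.73 ± 0.17 SE in KO (edgeR adjusted p = 0.080) and -0.65 ± 0.17 SE in DeltaSP (adjusted p = 0.227), with the same WT libraries in both. The class joins its clusters in parts that varied by library, as given above, and the effect of this on Hk2 was not tested. In the p3 or floor plate-like cluster Hk2 was at 54.1 and 55.0 CPM (not TMM-scaled) in WT, 30.1 and 29.8 in DeltaSP and 27.6 and 30.8 in KO. In the neural progenitor-like cluster the groups overlapped for KO (24.4 and 20.5 in WT, 15.4 and 24.9 in KO). Without WT 2 the KO value passed (-0.74, adjusted p = 0.047).

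Of the other pathway genes over all cells, Gpd2, the mitochondrial glycerol-3-phosphate dehydrogenase, was the only one of 31 tested on the glycolysis list to pass between KO and WT. It was at 21.4 and 26.1 CPM in WT, 39.1 and 41.2 in DeltaSP and 44.8 and 47.0 in KO (log2 0.95 ± 0.15 SE, edgeR adjusted p = 0.026). No glycolysis-list gene passed within progenitor-like cells (29 tested) or neuron-like cells (28 tested). Gpd2 was 2.59-fold lower in neuron-like than in progenitor-like cells. The progenitor-like class made 25.7% and 29.2% of cells in WT and 34.7% and 42.7% in KO. Its part in the Gpd2 difference was not tested. Of 31 hypoxia-list genes, Higd1a, a mitochondrial protein induced by hypoxia, alone passed: 357 and 392 CPM in WT, 175 and 278 in DeltaSP and 146 and 154 in KO (log2 -1.32 ± 0.23 SE, adjusted p = 0.031). It passed within progenitor-like (-1.29, adjusted p = 0.045) and neuron-like cells (-1.32, adjusted p = 0.034) as well. The fixed set of other genes did not pass: Pgk1 (0.74), Tpi1 (0.71), Gpi1 (0.41), Slc2a3 (0.57), Ldhb (-0.52), Pdk1 (1.49), Bnip3 (0.63), Vegfa (-0.21) and Hif1a (-0.22) on the log2 scale. Pgk1 lies on the X chromosome, as the targeted transcript does, 795 kb from it. Among receptors and partners of Mif, 0 of 5 tested passed over all cells (7.52% of all genes did), and Cxcr4 was higher in KO within neuron-like cells (121 ± 0.96 against 65.4 ± 3.1 CPM, SD, n = 2, log2 0.89, edgeR adjusted p = 0.033). Among neuron-like clusters Cxcr4 was highest in number 5, the cluster that made more of the class in KO, at 140 CPM (not TMM-scaled) in WT 2 and 244 and 252 in KO, WT 1 having 14 cells there. In the shallow motor neuron-like cluster, which made more of the class in WT, it was at 134 and 126 CPM in WT, KO having under 50 cells there in each library. In the Sst and Prph cluster Cxcr4 was at 10.1 and 12.2 CPM in WT and 46.9 and 42.3 in KO, and in the interneuron-like one at 30.2 and 39.8 and at 105 and 63.8, with no overlap of WT and KO in either.

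Within classes, the KO and WT comparison called 0 members in progenitor-like cells (3 at an unadjusted p under 0.05, namely Slc2a1, Hk2 and Mif; 2.16% of 12662 genes passed, 0.19% higher and 1.97% lower) and 1, Mif, in neuron-like cells (3.35% of 12825 genes passed, 0.889% higher and 2.46% lower). No member's KO effect differed between the classes after adjustment (4 at an unadjusted p under 0.05, among them Mif at -0.30 on the log2 scale; 0.00791% of genes passed). The same held for the DeltaSP effect (1 member, Aldoa, at an unadjusted p under 0.05; 0.0158% of genes passed).

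Between DeltaSP and WT, 0 of 10 members passed over all cells by edgeR or by DESeq2's Wald test, with 0 at an unadjusted p under 0.05 in edgeR, where 0.356% of 14900 genes passed (0.289% higher, 0.0671% lower). The values for DeltaSP and KO against WT share the WT libraries and are given side by side. Slc2a1 was at 0.52 ± 0.23 SE in DeltaSP beside 1.05 in KO, and Mif at -0.56 ± 0.28 SE beside -1.31. Gapdh was at 0.81 ± 0.36 SE beside 0.80. Ldha was at 0.68 beside 1.69 and Pfkl at 0.21 beside 1.04. Libraries did not overlap for 4 of 10 members (Slc2a1 and Gapdh higher, Hk2 and Mif lower in DeltaSP), and for 48.1% of all genes (24.9% higher, 23.1% lower). Of the other fixed genes, Vegfa (-0.67), Bnip3 (-0.67), Slc2a3 (-0.53), Ldhb (-0.26), Pdk1 (-0.25), Hif1a (-0.19), Tpi1 (0.07), Gpi1 (0.15) and Pgk1 (0.23) did not pass, nor did any of the 31 glycolysis-list or 31 hypoxia-list genes tested. Against WT within the classes, DeltaSP called 0 members in either (1 in each at an unadjusted p under 0.05, Hk2 in progenitor-like and Mif in neuron-like cells; 0.0079% and 0.0546% of genes passed, the latter 0.039% higher and 0.0156% lower).

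Between KO and DeltaSP, 0 of 10 members passed by either tool, with 1 (Mif) at an unadjusted p under 0.05, and 0.00671% of all genes passed, which is 1 gene, the targeted transcript. The log2 differences were 0.53 ± 0.23 SE for Slc2a1, -0.75 ± 0.28 SE for Mif and 1.01 ± 0.89 SE for Ldha. Libraries did not overlap for Slc2a1 and Mif, as for 42.0% of all genes (20.8% higher, 21.1% lower). The other fixed genes were at 1.74 (Pdk1), 1.30 (Bnip3), 1.11 (Slc2a3), 0.65 (Tpi1), 0.50 (Pgk1), 0.46 (Vegfa), 0.26 (Gpi1), -0.03 (Hif1a) and -0.26 (Ldhb) on the log2 scale, none passing. Within the classes 0 members passed (1, Mif, at an unadjusted p under 0.05 in each; 0.0079% of genes passed in progenitor-like and 0.0078% in neuron-like cells).

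Eno1 and Aldoa have near copies in the table. Eno1b, a near-identical copy of Eno1, held 645 UMIs, 0.879% of those of both. A second row of the symbol Aldoa held 30 UMIs beside 69229; the symbol belongs to 2 neighbouring annotated genes, and the table does not say which row is which.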

How the data were processed

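Day 6 embryoid bodies were profiled with the 10x 3′ kit, named as V3 and V3.1 in the labels. The authors deposited whole UMI counts for each gene in each barcode, not normalised, from Cell Ranger 4.0, with mm10 as genome and Ensembl 93 as annotation, per the labels and the submitters' processing notes; the smallest barcode held 500 UMIs, and cells were kept from 1000 detected genes up and up to 10% of UMIs from mitochondrial genes. Doublets were not removed, and no doublet caller was run.

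Counts scaled to 10000 per cell and log values of 2000 variable genes, centred and scaled in each library, gave 30 principal components, 15 neighbours and 12 Leiden clusters (resolution 0.6; scanpy 1.11.5, leidenalg 0.10.2). Clusters took the name with most markers raised at least 2-fold and at 20 CPM or more, at least 3 of them. These markers also had to outnumber the raised stress or interferon markers. A cluster of very low depth also needed such a marker among its 10 leading genes. These rules were set after the clusters were seen, and 3 clusters stayed unnamed. Progenitor-like and neuron-like classes join named clusters. The shallow motor neuron-like cluster holds 36.3% of the neuron-like cells of WT 1 and 2.14% to 12.1% elsewhere.

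UMIs were summed per library and class and tested with edgeR 4.0.16 (R 4.3.3; TMM, filterByExpr, quasi-likelihood test, Benjamini-Hochberg over all tested genes, threshold 0.05), with 6 libraries in 1 fit. SE is the log2 difference over the root of F. Adjusted p-values in the text are from these fits. On simulated data with known changes between KO and WT over all cells (14900 genes), 74% of 2-fold and 100% of 4-fold changes were recovered, with 12 false calls. Alternatives included DESeq2 1.42.0 and lengths from GENCODE M21, in which 30464 of 31053 names were found. Exact tests used scipy 1.17.1. Intervals over cells are not given, since cells are not replicates.

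Members, gene lists and tests were chosen with earlier results of these data known. By rule the text names the 10 members, listed pathway and hypoxia genes that passed, and Pgk1, Tpi1, Gpi1, Ldhb, Slc2a3, Pdk1, Bnip3, Vegfa and Hif1a; others were named after their values were seen. Some genes are not reported here.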

Additional observations from a re-analysis of the deposited data

How the results depend on the processing

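Of 829 re-computed values of single members, 771 kept direction and side of the threshold, 28 reversed, 16 passed only under the alternative and 14 only in the reported fit; among genotype comparisons no member that passed reversed. Causes were not tested. Over all cells, counts of genes passing are given for KO and WT, DeltaSP and WT, and KO and DeltaSP. With no filter on low counts they were 3390, 1326 and 422 of 22804 genes tested (7, 1 and 3 members). By DESeq2 they were 2382, 604 and 51 of 14900. With only the compared genotypes in the fit, 4 genes passed between KO and DeltaSP, and with the length trend removed 1 member between KO and WT. Replicate numbers were not treated as pairing (same-number deviations correlated at -0.267, 0.391 and -0.02); with a replicate block DeltaSP and WT had 22 genes, neuron-like KO and WT 259 genes and 2 members (Ldha 1.82, adjusted p = 0.047), neuron-like DeltaSP and WT 4 genes, and Ldha passed over all cells (1.74, adjusted p = 0.031).

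For cell classes, resolution 1.2 gave 6 genes between DeltaSP and WT in progenitor-like and 2 in neuron-like cells, and 2 with a KO effect that differed between classes. Clusters not centred per library gave 506 (KO and WT), 13 (DeltaSP and WT) and 4 (KO and DeltaSP) genes in progenitor-like cells, 4 (DeltaSP and WT) in neuron-like cells and 40 for the difference of KO effects. Classes by pan-neuronal UMIs (37 to 165 cells a library within 1 UMI of the limit) gave 1 member, Mif, between KO and WT in progenitor-like cells and 1 gene for the difference of DeltaSP effects. Without the shallow motor neuron-like cluster, an alternative chosen after seeing the data, neuron-like cells gave 649 (KO and WT) and 3 (DeltaSP and WT) genes, and the difference of DeltaSP effects 1.

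Leaving out 1 library at a time, where a genotype left with 1 library is assumed to vary like the others, genes passing over all cells ranged from 4 (without KO 2) to 3207 (without WT 2) for KO and WT (15 without WT 1, 33 without KO 1, 728 without DeltaSP 1, 735 without DeltaSP 2), with 0 to 2 members, from 1 to 1106 for DeltaSP and WT and from 1 to 4 for KO and DeltaSP. In progenitor-like cells they ranged from 1 to 2025 (0 to 2 members), 0 to 869 and 0 to 4, in neuron-like cells from 2 to 1963 (0 to 1 members), 1 to 668 and 1 to 3, and for differences of KO and DeltaSP effects from 0 to 175 and 0 to 91. Ranges that crossed 0 on the log2 scale were, for KO and WT, Hk2 -0.49 to 0.10, Aldoa -0.14 to 1.12 and Eno1 -0.0089 to 1.83. For DeltaSP and WT they were Hk1 -0.39 to 0.13, Pfkl -0.29 to 1.01, Aldoa -0.24 to 0.69, Eno1 -0.32 to 1.38 and Ldha -0.14 to 2.33. For KO and DeltaSP they were Hk1 -0.48 to 0.032, Hk2 -0.13 to 0.46, Pfkl -0.21 to 1.43, Aldoa -0.33 to 0.91, Gapdh -0.50 to 0.35, Eno1 -0.30 to 0.94, Pkm -0.22 to 0.48 and Ldha -0.48 to 1.84. Within classes they were Hk1 -0.38 to 0.60 in progenitor-like cells, Hk1 -0.46 to 0.19, Hk2 -0.57 to 0.83 and Ldha -0.22 to 4.06 in neuron-like cells (KO and WT), and Hk2 -0.58 to 0.011 there (DeltaSP and WT). Shares crossed 0, in percentage points, for Hk2 (KO and WT -0.450 to 5.78, DeltaSP and WT -7.92 to 0.527), Slc2a1 (KO and WT -0.409 to 2.85), Ldha (DeltaSP and WT -2.0002 to 38.3, KO and DeltaSP -1.49 to 29.0), Aldoa (DeltaSP and WT -1.21 to 0.449, KO and DeltaSP -1.41 to 0.0135) and Eno1 (KO and DeltaSP -0.197 to 0.692).

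With 2 libraries a genotype, 74% of simulated 2-fold changes were recovered over all cells, 66% in progenitor-like and 52% in neuron-like cells. Smaller differences of members can thus be missed. The simulation gave each gene the spread fitted to genes of like level. Ldha differed 5.25, 2.54 and 4.61 times between the libraries of WT, DeltaSP and KO. For members with such a spread, differences over 2-fold can be missed as well. The thinnest all-cell value of a member, Hk2 in WT 1, rests on 244 UMIs. Values of classes and clusters rest on fewer, those of Hk2 in neuron-like cells on 21 to 56 UMIs a library.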
